A study of Mus musculus with 3 samples.

Results

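The ribosomal protein transcript share is the percent of a spot's transcripts that came from genes for ribosomal proteins. It was described in all 2758 spots of 3 sections of mouse tibialis anterior, a muscle of the front of the lower leg. The muscle was injured with notexin, a myotoxic phospholipase from snake venom, and was collected at 2, 5 or 7 days post injury (dpi). The sections held 859 spots at 2 dpi, 933 spots at 5 dpi and 966 spots at 7 dpi. All mice were female, aged 5 months and, per the study's methods, of the C57BL6/J strain, and no uninjured section was among those analysed here. With 1 section per time point, differences between sections carry no test, and a time point and its section cannot be told apart. Spots were chosen for no value of the share: every spot of the deposited tables was a member. A spot pools the RNA of whatever cells and myofiber pieces lie above it, so fewer cells of a type and less RNA per cell cannot be told apart in it.

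Ribosomal proteins are the structural proteins of the small and large ribosomal subunits, and each ribosome needs 1 copy of nearly every one of them. Their messenger RNAs are short, abundant and polyadenylated, and most carry a tract of pyrimidines at the 5′ end through which growth signals set their translation. Proliferating and newly differentiating cells build many ribosomes, while a mature myofiber directs much of its transcription to contractile and metabolic genes and to mitochondrial transcripts. The table gave the ribosomal protein transcripts as a sum, and the genes in that sum are not given in the sources used here. For scale, the GENCODE M21 annotation holds 92 protein-coding mouse genes whose symbols begin with Rpl or Rps, leaving out 10 Rps6k kinases, and 301 pseudogenes of such names. Reads of so many near-identical copies may be lost or shared in counting, so the share is an amount of what was counted.

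Over all spots, ribosomal protein transcripts made up a median of 5.85% of the unique molecular identifiers (UMIs, 1 for each captured molecule) in the 2 dpi section, 6.42% at 5 dpi and 7.87% at 7 dpi. The lower and upper quartiles were 4.06% and 8.30% at 2 dpi, 5.06% and 9.60% at 5 dpi, and 5.69% and 10.1% at 7 dpi. The full range ran from 1.77% to 16.6% at 2 dpi, from 3.24% to 22.2% at 5 dpi and from 3.06% to 21.5% at 7 dpi. The ranges of the sections overlapped over most of their length. The upper tail was longest at 5 dpi, where 44 spots exceeded 15%, against 1 spot at 2 dpi and 14 spots at 7 dpi. Spots above 10% made up 9.43%, 22.7% and 26.1% of the sections at 2, 5 and 7 dpi.

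These values rested on a median of 325, 676 and 1014 ribosomal protein UMIs per spot in the 3 sections, in order of time, with a lowest count of 40. Total UMIs per spot had medians of 5786, 11221 and 15135 at 2, 5 and 7 dpi, and the deepest section also had the highest median share. Counting alone would give an SD over spots of 0.377, 0.308 and 0.286 percentage points at 2, 5 and 7 dpi. The observed SD over spots was 2.54, 3.45 and 2.87 percentage points, so the spread was 6.74, 11.2 and 10.0 times that of counting. All UMIs of a section, pooled, gave 6.05% (95% exact Clopper-Pearson interval 6.03% to 6.07%) at 2 dpi. The same pooled share was 8.15% (8.13% to 8.17%) at 5 dpi and 8.52% (8.50% to 8.53%) at 7 dpi. These intervals cover the counting of molecules only and not the spread between animals or sections.

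**Figure D1:**
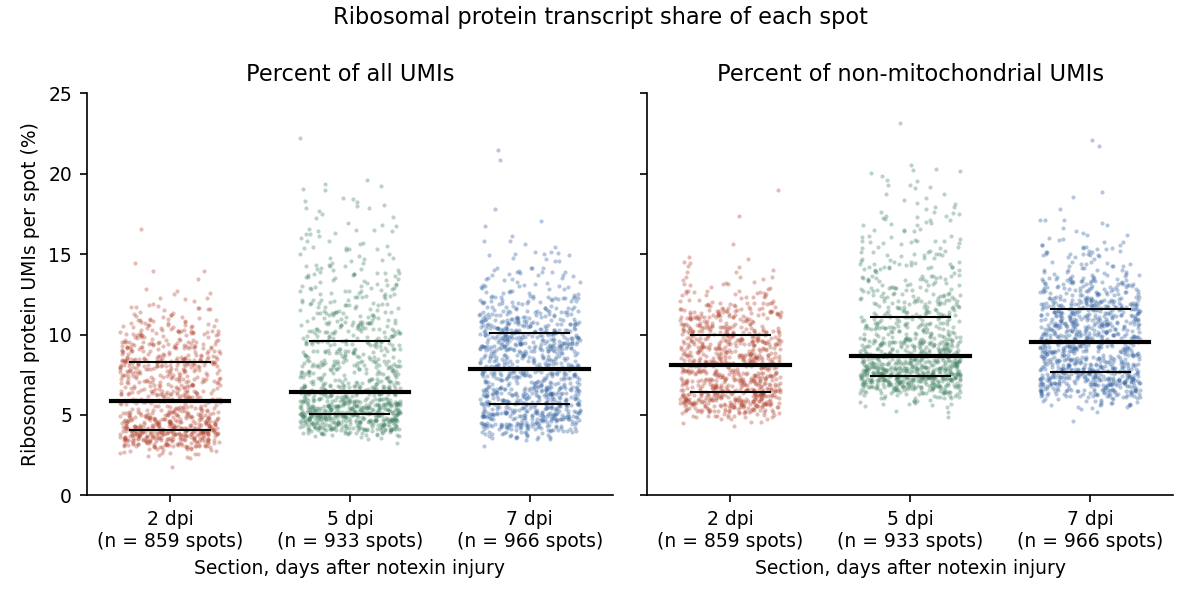
Ribosomal protein UMIs of each spot as a percent of all UMIs (left) and of non-mitochondrial UMIs (right), for the sections at 2, 5 and 7 dpi. Each point is 1 spot, the thick line is the median and the thin lines are the quartiles: medians of 5.85%, 6.42% and 7.87% on the left stand closer together on the right, at 8.09%, 8.66% and 9.56%.

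Myofibers are rich in mitochondrial transcripts, and these take up room in the total. The median mitochondrial share was 29.0%, 23.7% and 16.9% of UMIs at 2, 5 and 7 dpi. As a percent of the UMIs that were not mitochondrial, the median ribosomal protein share was 8.09%, 8.66% and 9.56% at 2, 5 and 7 dpi. The spread narrowed on this scale. The 95th percentile over spots was 2.32, 2.47 and 2.28 times the 5th percentile at 2, 5 and 7 dpi, against 3.41, 3.57 and 3.09 times with mitochondrial UMIs in the total. The SD over spots of 2.28, 3.05 and 2.61 percentage points still exceeded the counting SD of 0.485, 0.386 and 0.344. The pooled shares on this scale were 8.51%, 10.6% and 10.5% at 2, 5 and 7 dpi.

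The share followed the myonuclei part of a spot more closely than it followed any single theta value. Theta values are BayesPrism estimates of how much of a spot's RNA each type in a single-cell reference contributed, as fractions that sum to 1, and myonuclei theta stands for mature myofibers. Per the study's methods, which describe fewer types, the marker genes of that reference held neither mitochondrial nor ribosomal protein genes. On that account ribosomal protein counts did not enter theta. The totals beneath the share do include the marker transcripts of myofibers, so theta and the share are not independent. How much of their relation came from this was not tested. Spearman's rho between the share and summed myonuclei theta (types IIb and IIx) was -0.87 over 859 spots at 2 dpi, -0.91 over 933 spots at 5 dpi and -0.88 over 966 spots at 7 dpi. With non-mitochondrial UMIs as the total, rho was -0.83, -0.90 and -0.86. Spots of a section share a library and neighbouring tissue, so these correlations describe the sections and carry no p-value.

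In spots with summed myonuclei theta of at least 0.75 the median share was 4.07%, 5.15% and 5.42% of all UMIs at 2, 5 and 7 dpi. Where myonuclei theta was under 0.25, the median share was 10.4%, 17.4% and 13.2% in the same order. The ratio of these bin medians was 2.56, 3.38 and 2.43. The bins between held 8.64% (theta from 0.25 to 0.5) and 7.05% (0.5 to 0.75) at 2 dpi, so the 4 bins formed an ordered series. The same order held at 5 dpi, with 12.8% and 8.76% in the middle bins, and at 7 dpi, with 11.1% and 9.06%. The highest bin held 424, 512 and 408 spots and the lowest only 50, 32 and 34 spots at 2, 5 and 7 dpi.

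The order was kept after mitochondrial UMIs were removed from the total, with smaller ratios. Median shares of non-mitochondrial UMIs, from the lowest myonuclei bin to the highest, were 11.4%, 10.1%, 9.09% and 6.43% at 2 dpi. At 5 dpi they were 18.3%, 14.2%, 10.4% and 7.55%. At 7 dpi they were 14.2%, 12.4%, 10.6% and 7.45%. The lowest bin stood 1.77, 2.42 and 1.90 times above the highest at 2, 5 and 7 dpi. At 5 dpi the interquartile ranges of these 2 bins were far apart, from 16.8% to 19.6% and from 7.01% to 8.21%. At 7 dpi the lowest bin had an interquartile range from 9.89% to 16.5% and reached down to 4.62%, so it overlapped the highest bin, whose spots ran from 5.20% to 10.8%.

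**Figure D2:**
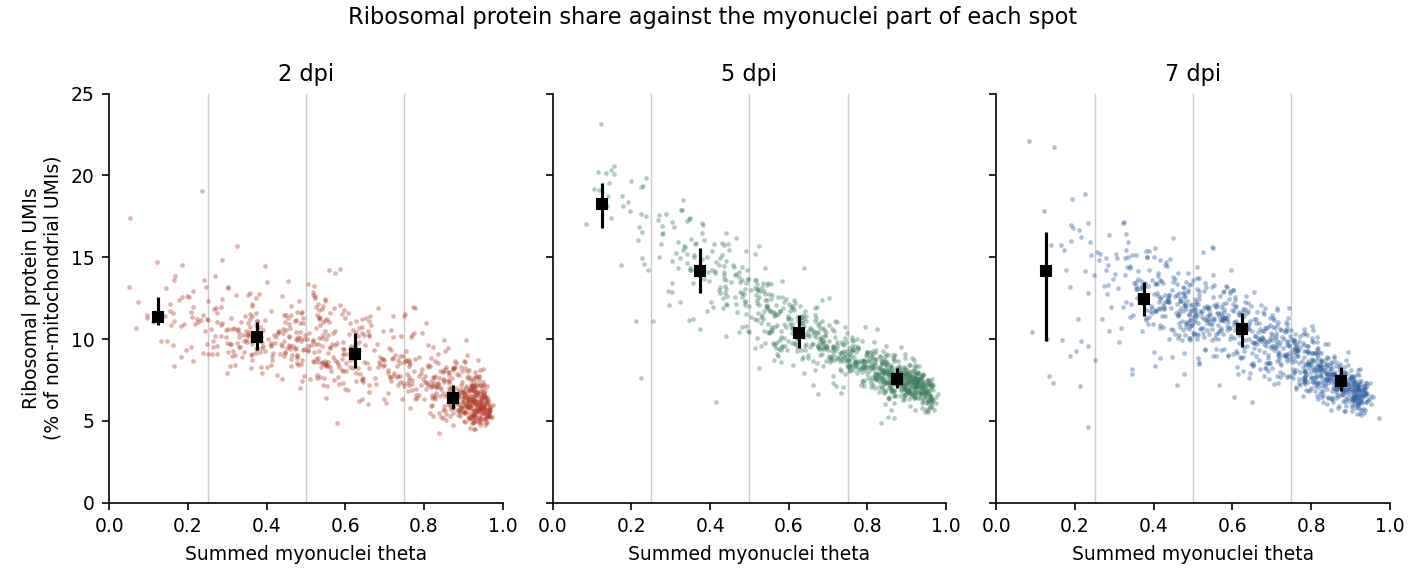
Ribosomal protein UMIs as a percent of non-mitochondrial UMIs (vertical axis) against summed myonuclei theta, a fraction (horizontal axis), 1 panel per section. Points are spots, black squares are bin medians and black bars the interquartile range of each bin: medians of the lowest bin were 11.4%, 18.3% and 14.2% and those of the highest bin 6.43%, 7.55% and 7.45% at 2, 5 and 7 dpi.

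Straight lines through the spots gave a similar picture. Extended to a myonuclei theta of 1, the fitted share of non-mitochondrial UMIs was 5.95%, 5.83% and 6.22% at 2, 5 and 7 dpi. Extended to a theta of 0, the fitted share was 13.4%, 19.4% and 16.9%. The lines thus lay close together at the myofiber end and apart at the other end. Their r squared over spots was 0.639, 0.846 and 0.682 at 2, 5 and 7 dpi.

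The molecules behind the percentages differed between sections. At 5 dpi a median of 3391.5 ribosomal protein UMIs per spot was counted in the lowest myonuclei bin, against 584 in the highest, a ratio of 5.81. Mitochondrial UMIs went the other way, with medians of 1042.5 and 3315. All other UMIs were 14525 in the lowest bin and 7055.5 in the highest, a ratio of 2.06. At 5 dpi, therefore, spots with few myonuclei transcripts held more molecules of the other 2 kinds, and ribosomal protein molecules exceeded the rest in their ratio.

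At 7 dpi the ribosomal protein count was 2245 in the lowest bin and 841 in the highest, a ratio of 2.67. All other UMIs differed little, at 11747.5 and 10307.5. Mitochondrial UMIs were 701.5 and 3591.5. At 2 dpi the ribosomal protein count was 789 in the lowest bin but 330, 300 and 310 in the next 3, while the share went down from bin to bin. Total UMIs at 2 dpi were also lowest in the middle bins, with medians of 7647, 3767.5, 4412 and 7586.5 from the lowest bin to the highest. At 2 dpi the number of ribosomal protein molecules thus differed between the lowest bin and the rest, but hardly among the other 3 bins.

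**Figure D3:**
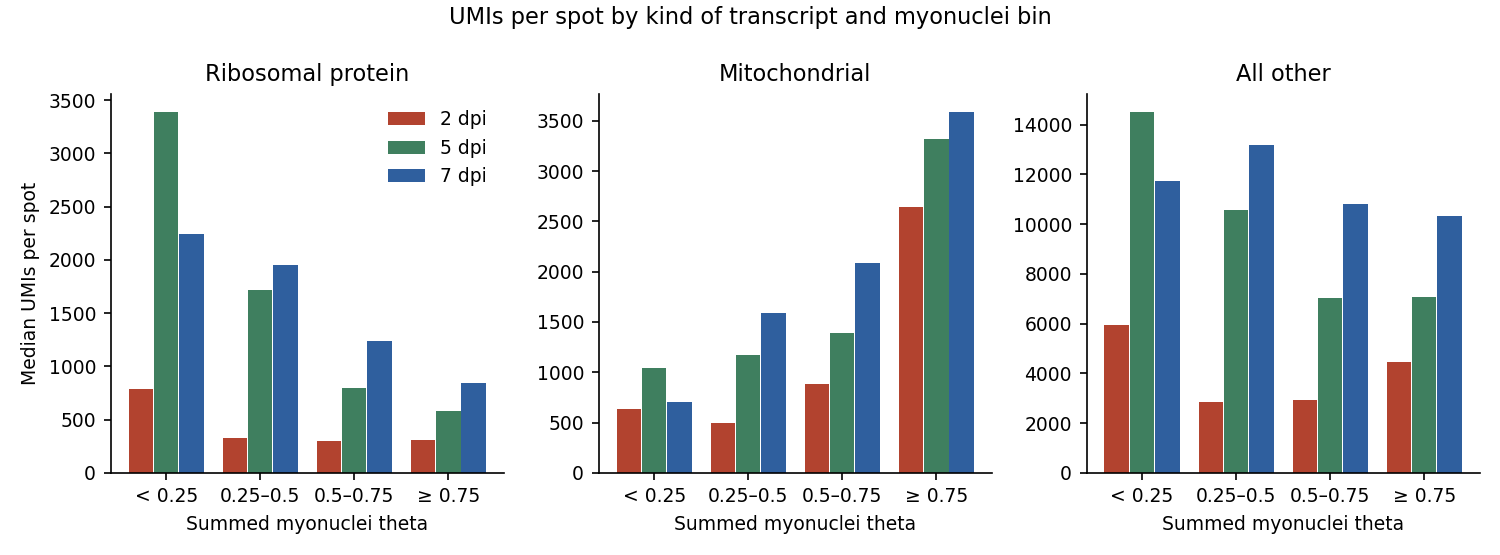
Median UMIs per spot for ribosomal protein, mitochondrial and all other transcripts (vertical axes, separate scales, starting at 0) in 4 bins of summed myonuclei theta, with 1 bar per section. Ribosomal protein medians from the lowest bin to the highest were 789, 330, 300 and 310 at 2 dpi, 3391.5, 1720, 800 and 584 at 5 dpi, and 2245, 1947, 1242 and 841 at 7 dpi.

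Sections differed in how many spots fell into each bin, so they were also set side by side within bins. Of non-mitochondrial UMIs in spots with myonuclei theta of at least 0.75, the median share at 5 dpi was 1.18 times and at 7 dpi 1.16 times that at 2 dpi. In spots under 0.25 these ratios were 1.61 and 1.25. Between 7 and 5 dpi the ratio was 0.986 in the highest bin, 1.02 and 0.879 in the middle bins and 0.776 in the lowest. The share of all UMIs gave 1.05, 1.03, 0.866 and 0.757 in the same order. Over all spots, by contrast, the median share of all UMIs at 7 dpi was 1.23 times that at 5 dpi, and 54.9% of the spots at 5 dpi but 42.2% at 7 dpi lay in the highest bin. The higher median at 7 dpi than at 5 dpi was therefore not found within the 2 lower bins.

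Among the 25 cell types other than myonuclei, monocytes and macrophages had the highest class median correlation with the share in each section. These cells clear dead fibers and signal to muscle stem cells (MuSCs). All 6 of their types had a rho of at least 0.2 with the share of all UMIs in each section, with class medians of 0.76, 0.70 and 0.59 at 2, 5 and 7 dpi. Patrolling monocytes had the highest rho of all types at 2 dpi (0.80), with 0.65 at 5 dpi and 0.56 at 7 dpi. Cxcl10+ monocytes gave 0.78, 0.75 and 0.63, and M1 macrophages, the pro-inflammatory state, gave 0.76, 0.67 and 0.53. Cx3cr1-hi M2 macrophages, a repair-associated state, had the reverse order, at 0.66, 0.83 and 0.85, and were the highest of all types at 7 dpi. Cx3cr1-lo M2 macrophages gave 0.69, 0.72 and 0.63. Few transcripts were assigned to most of these types at 5 and 7 dpi. Mean theta of Cx3cr1-hi M2 macrophages was 0.0145 and 0.0180 there, and the largest among the other types of the class was 0.00823. At 2 dpi patrolling monocytes had a mean theta of 0.0780.

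Myogenic progenitors were less uniform. Fusing myocytes, the stage at which cells join into new fibers, had a rho of 0.65, 0.88 and 0.81 at 2, 5 and 7 dpi, the highest of all types at 5 dpi. The earlier stages had their highest values at 2 dpi. Quiescent MuSCs gave 0.57 at 2 dpi, -0.020 at 5 dpi and -0.14 at 7 dpi. Activated MuSCs gave 0.70, 0.33 and 0.052, and committed myoblasts 0.69, 0.11 and -0.14. Among spots of 5000 to 10000 UMIs at 7 dpi quiescent MuSCs gave -0.014, activated MuSCs 0.15 and committed myoblasts 0.15. Mean theta of these 3 earlier types was at most 0.0121 in any section, so few transcripts were assigned to them, while that of fusing myocytes was 0.0299, 0.115 and 0.122 at 2, 5 and 7 dpi.

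Fibro/adipogenic progenitors (FAPs) are the stromal cells that lay down matrix during repair. Pro-remodeling FAPs had a rho of 0.64, 0.73 and 0.69 at 2, 5 and 7 dpi and were among the 3 highest types at 7 dpi. Stem FAPs gave 0.67, 0.19 and 0.023, and adipogenic FAPs 0.44, 0.34 and 0.020. Among spots of 5000 to 10000 UMIs at 7 dpi these values were 0.31 for stem FAPs and 0.45 for adipogenic FAPs. At a given UMI count over all spots at 7 dpi they were only 0.11 for both. All 5 other immune types (dendritic, B, T and NK cells and neutrophils) had a rho of at least 0.2 in every section, with class medians of 0.65, 0.51 and 0.39. Mean theta of these 5 types was at most 0.00737 in any section. Capillary endothelial cells, which line the smallest vessels, gave 0.28, -0.20 and -0.15 and were among the 3 lowest types at 5 and 7 dpi. Among spots of 5000 to 10000 UMIs their value at 7 dpi was 0.14. Smooth muscle cells of the vessel wall were the third lowest at 2 dpi, with 0.27, and gave 0.054 and -0.044 at 5 and 7 dpi. In all, 25, 16 and 14 of the 25 types had a rho of at least 0.2 at 2, 5 and 7 dpi, and 1 type, capillary endothelial cells at 5 dpi, was at -0.20.

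Theta values of a spot sum to 1, so the other types together are higher where myonuclei theta is low. At a given summed myonuclei theta, the partial rank correlations of the 25 types lay between -0.22 and 0.20 at 2 dpi, between -0.33 and 0.22 at 5 dpi and between -0.38 and 0.49 at 7 dpi. Over all spots none reached 0.2 at 2 dpi. Fusing myocytes alone did so at 5 dpi, with 0.22. At 7 dpi Cx3cr1-hi M2 macrophages (0.49), fusing myocytes (0.32) and Cx3cr1-lo M2 macrophages (0.24) did so. At 2 dpi fusing myocytes gave 0.028. On the non-mitochondrial scale fusing myocytes had 0.22, 0.27 and 0.32 at 2, 5 and 7 dpi, so their value at 2 dpi depended on the total. Cx3cr1-hi M2 macrophages had 0.45 on that scale at 7 dpi and -0.14 at 2 dpi.

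All 4 endothelial types had negative partial correlations in every section, from -0.088 to -0.17 at 2 dpi, from -0.24 to -0.33 at 5 dpi and from -0.24 to -0.33 at 7 dpi. With non-mitochondrial UMIs as the total these were smaller, from -0.011 to -0.096, from -0.14 to -0.17 and from -0.14 to -0.27. Smooth muscle cells gave -0.22, -0.26 and -0.38 of all UMIs, and -0.14, -0.14 and -0.34 of non-mitochondrial UMIs. Neural cells gave -0.056, -0.25 and -0.37, and -0.052, -0.24 and -0.37, on these 2 scales. Theta of most of these types was itself higher in shallow spots. Neural theta had a rho of -0.62, -0.68 and -0.63 with the UMI count at 2, 5 and 7 dpi. Spots of 5000 to 10000 UMIs were therefore also taken alone. Among the 163 such spots at 7 dpi the partial correlation was 0.41 for Cx3cr1-hi M2 macrophages, 0.39 for Cx3cr1-lo M2 macrophages and -0.35 for neural cells, but 0.10 for fusing myocytes. Dendritic cells (0.32), Cxcl10+ monocytes (0.31), patrolling monocytes (0.31) and adipogenic FAPs (0.27) also exceeded 0.2 there. Artery and vein endothelial cells and smooth muscle cells gave -0.23, -0.25 and -0.24. Among the 255 at 5 dpi fusing myocytes gave 0.24 and neural cells -0.43, and all 4 endothelial types lay between -0.29 and -0.37. On the non-mitochondrial scale fusing myocytes gave 0.18 and neural cells -0.29 there, and the endothelial types lay between -0.14 and -0.18. Among the 305 at 2 dpi neural cells gave 0.069, a turned sign, and 3 of the 4 endothelial types were within 0.1 of 0. On the non-mitochondrial scale those 3 (artery, vein and stem-like) were positive at 2 dpi, at 0.060, 0.056 and 0.045. Activated MuSCs gave 0.29 in these 305 spots and 0.36 on the non-mitochondrial scale. Committed myoblasts gave 0.199 and 0.31 in the same order, and stem FAPs 0.198 and 0.22.

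**Figure D4:**
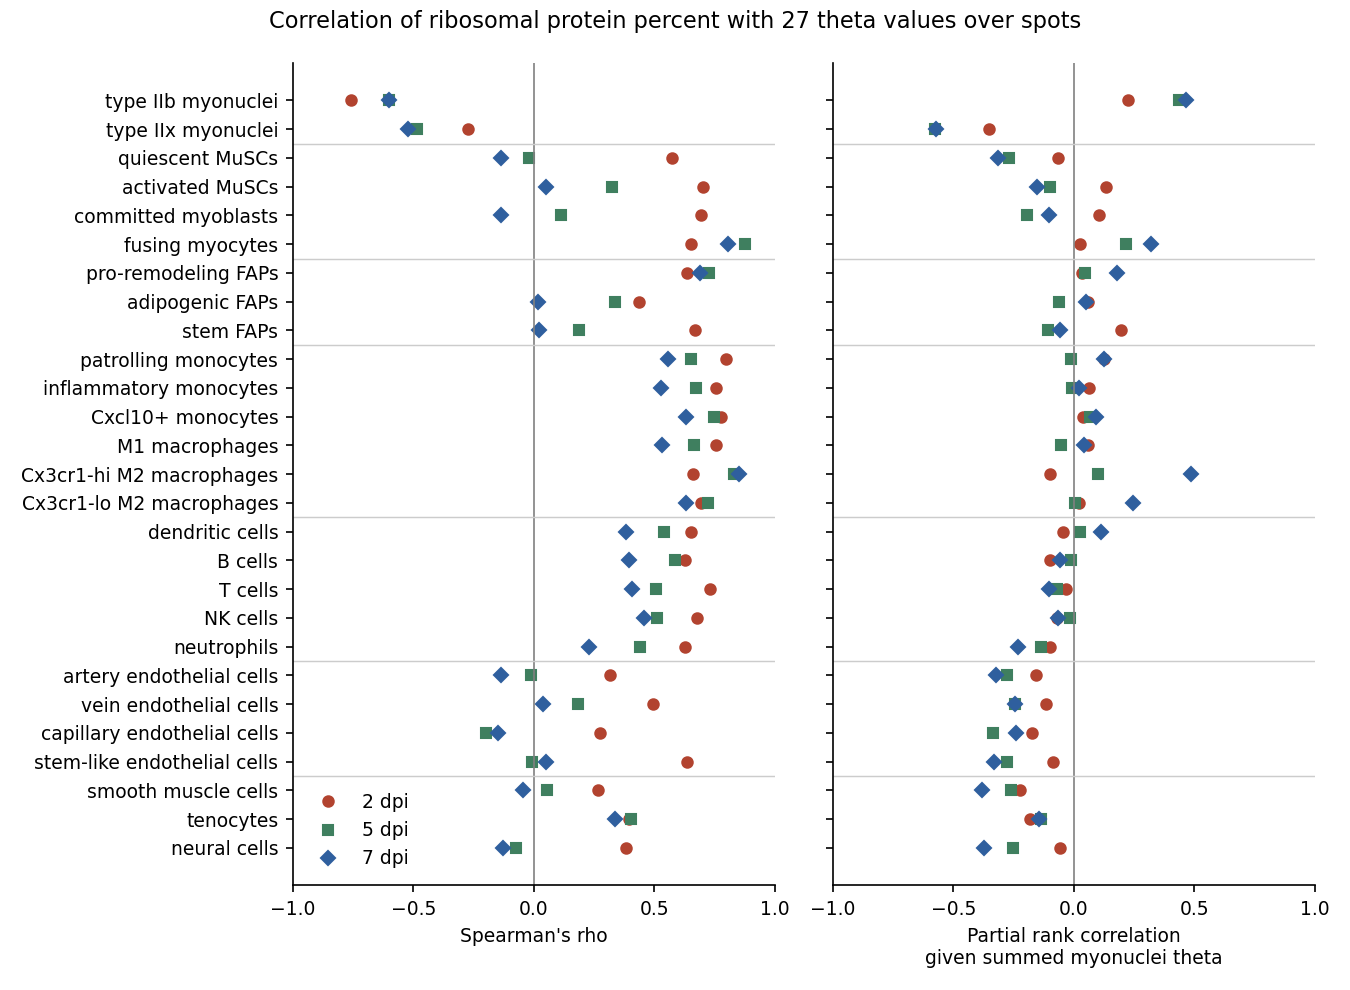
Spearman's rho over spots between the ribosomal protein percent of all UMIs and each of 27 theta values (left), and the partial rank correlation at a given summed myonuclei theta (right), with 1 symbol per section and grey lines between classes. On the left 25, 16 and 14 of the 25 types outside myonuclei reach 0.2 at 2, 5 and 7 dpi, and on the right 0, 1 and 3 do.

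The 2 myonuclei types had unlike relations to the share. Type IIb nuclei belong to the fastest, most glycolytic fibers, and type IIx nuclei to fast fibers with more mitochondria. The rank correlation with type IIb theta was -0.76, -0.60 and -0.60 at 2, 5 and 7 dpi, and with type IIx theta -0.27, -0.48 and -0.52. For type IIx at 5 dpi it was -0.35 with non-mitochondrial UMIs and -0.079 in spots of 5000 to 10000 UMIs. At a given sum of both, the partial correlation was -0.35, -0.58 and -0.57 for type IIx and 0.22, 0.44 and 0.47 for type IIb. Both types make up the sum, so these values are not independent. With non-mitochondrial UMIs as the total, the partial correlations of type IIx were -0.14, -0.24 and -0.40. Those of type IIb were then -0.0016, 0.082 and 0.30, so its positive values at 2 and 5 dpi depended on the total.

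Within spots of at least 0.75 myonuclei theta, the type IIx part of the myonuclei theta went with the mitochondrial percent. At 2 dpi the median mitochondrial percent was 34.1% where type IIx made up under 0.1 of it and 45.6% where it made up at least 0.3, with 307 and 27 spots. The ribosomal protein share of all UMIs was 4.05% and 3.72% in these sets, but of non-mitochondrial UMIs it was 6.33% and 6.71%. At 5 dpi it was 5.22% and 4.99% of all UMIs, and 7.38% and 7.72% of non-mitochondrial UMIs. The direction between these sets thus turned with the total at 2 and 5 dpi. Median myonuclei theta was lower in the type IIx-rich sets, at 0.840 against 0.914 at 2 dpi and 0.859 against 0.907 at 5 dpi. At a given myonuclei theta, the correlation of the type IIx part with the non-mitochondrial share was 0.015 at 2 dpi and -0.10 at 5 dpi, so no higher share was left with more type IIx. At 7 dpi the share was 5.98% and 4.96% of all UMIs and 7.74% and 7.55% of non-mitochondrial UMIs, so it was lower with more type IIx on both scales, although spots in between had the lowest non-mitochondrial median, 7.15%. On the non-mitochondrial scale these medians at 7 dpi all lay within the interquartile range of the type IIx-poor spots, 6.88% to 8.66%. Of all UMIs, the type IIx-rich median of 4.96% lay below the lower quartile of the type IIx-poor spots, 5.09%. At a given myonuclei theta, the correlation of the type IIx part with the non-mitochondrial share at 7 dpi was -0.31.

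Spots with myonuclei theta under 0.5 were next sorted by the class that led outside myonuclei, and which class led differed between the sections. At 2 dpi monocytes and macrophages led in 214 of 230 such spots, with a median share of 9.14% of all UMIs and 10.4% of non-mitochondrial UMIs. At 5 dpi myogenic progenitors led in 139 of 155 spots, with 13.3% and 14.5%. At 7 dpi myogenic progenitors led in 175 of 233 spots, with 11.4% and 12.7%. The single leading type was mostly patrolling monocytes at 2 dpi (178 spots) and fusing myocytes at 5 dpi (142 spots) and 7 dpi (181 spots). Leading class and time point moved together, so their parts in the difference between 2 dpi and the later sections cannot be told apart.

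The section at 7 dpi held 2 more classes of at least 20 spots. FAPs led in 20 spots, with a median of 10.8% of all UMIs and 12.0% of non-mitochondrial UMIs. Structural and neural cells (smooth muscle cells, tenocytes and neural cells) led in 28 spots, with 8.52% and 9.40%. These 28 spots were shallow, with a median of 2039.5 UMIs. The 20 of them with under 3000 UMIs had a median of 8.91% of non-mitochondrial UMIs, and the 8 deeper ones 11.8%, against 12.7% for the 173 spots of at least 3000 UMIs that myogenic progenitors led. Within the bin under 0.25 at 7 dpi, neural cells were the leading type in 12 of 34 spots, with 9.11% of non-mitochondrial UMIs, and fusing myocytes in 13 spots, with 16.7%. Their median depths were 1867.5 and 25553 UMIs. In this bin the non-mitochondrial share had a rho of 0.80 with the UMI count, so leading type and depth cannot be told apart. Both kinds of spot lay in the lowest bin at 7 dpi, whose range was wide.

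**Figure D5:**
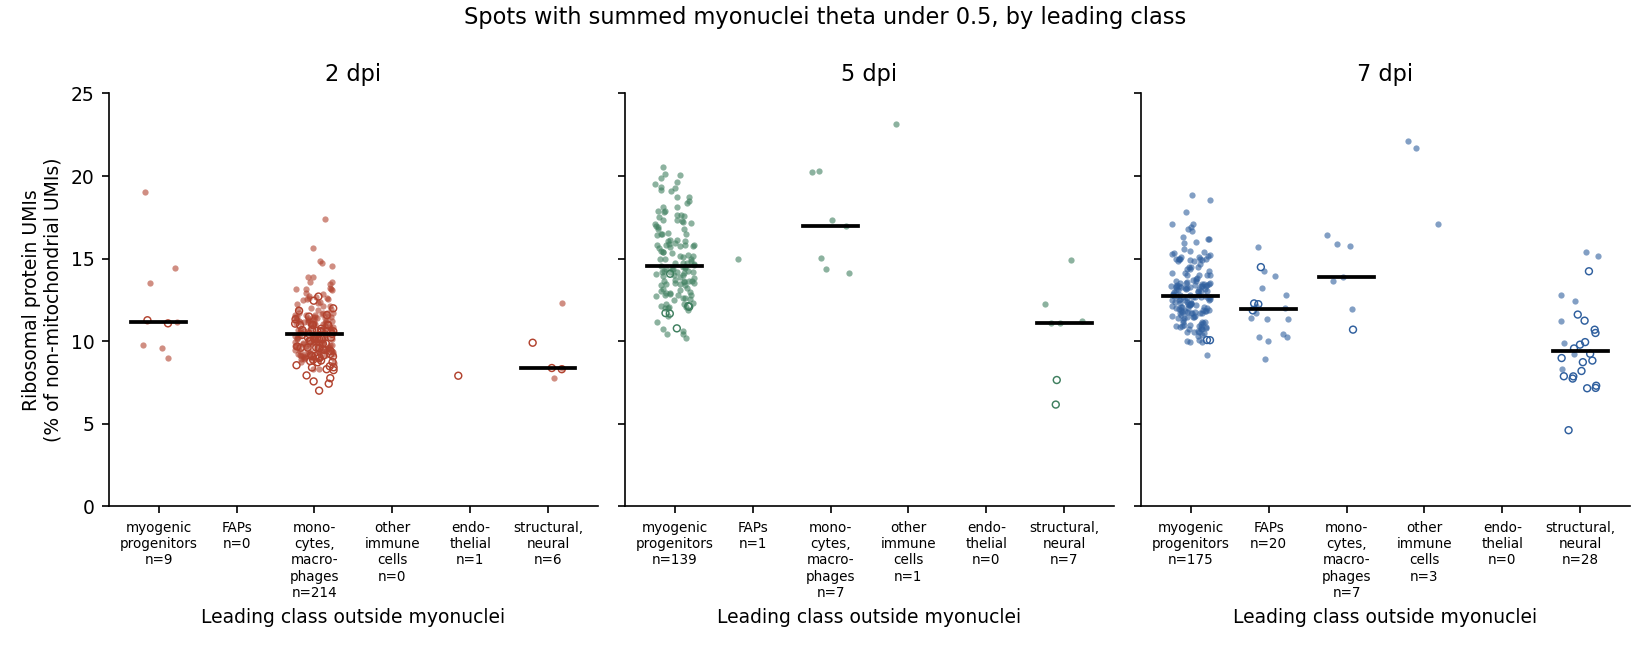
Ribosomal protein UMIs as a percent of non-mitochondrial UMIs (vertical axis) in spots with summed myonuclei theta under 0.5, by the class with the highest summed theta outside myonuclei (horizontal axis), 1 panel per section. Filled points are spots of at least 3000 UMIs, open circles shallower spots, and lines the medians of classes of 5 or more spots: the largest classes lie at 10.4% (monocytes and macrophages, 2 dpi), 14.5% and 12.7% (myogenic progenitors, 5 and 7 dpi).

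The spots with the highest shares differed in makeup. Their first, second and leading types are those with the highest theta outside myonuclei. At 5 dpi the highest spot, with 22.2% (3154 of 14179 UMIs), had dendritic cells as its first type (theta 0.373) and NK cells as its second (0.115). At 7 dpi the highest spot, with 21.5% (5156 of 23973 UMIs), had the same first and second types, with theta of 0.391 and 0.181. Dendritic cells, which present antigen to T cells, also came first in the second highest spot at 7 dpi, with 20.9%. Another spot at 5 dpi in which dendritic cells led outside myonuclei had only 12.8%. The next spots in order, down to the fifth, were led by fusing myocytes or Cx3cr1-hi M2 macrophages at 5 dpi and by fusing myocytes at 7 dpi. At 2 dpi the highest spot had 16.6% (3058 of 18461 UMIs) and patrolling monocytes first (theta 0.468). Of non-mitochondrial UMIs it held 17.4%, below the 19.02% of another spot. In that spot fusing myocytes (0.159) and committed myoblasts (0.135) came first outside myonuclei, whose summed theta was higher, at 0.237. These spots were named after their values were seen. The other immune types led in only 1 spot under 0.5 at 5 dpi and in 3 at 7 dpi, so no median was formed for them.

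The lowest spots were made up of myonuclei. The lowest of all, with 1.77% at 2 dpi, held 86 ribosomal protein UMIs, had a mitochondrial percent of 72.2% and a type IIx theta of 0.446. Of its non-mitochondrial UMIs the share was 6.37%, within the interquartile range of its bin (5.75% to 7.22%). The lowest spots at 5 and 7 dpi, with 3.24% and 3.06%, held 4.89% and 5.79% of non-mitochondrial UMIs. In the lowest 10% of spots by the non-mitochondrial share, mean summed myonuclei theta was 0.920, 0.913 and 0.889 at 2, 5 and 7 dpi.

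In the highest 10%, myonuclei theta still averaged 0.376, 0.313 and 0.357, and the leading type outside myonuclei was patrolling monocytes at 2 dpi and fusing myocytes at 5 and 7 dpi. At 2 dpi patrolling monocytes averaged 0.190 in these 86 spots against 0.0780 in the section, and fusing myocytes 0.0596 against 0.0299. At 5 dpi fusing myocytes averaged 0.316 in 93 spots against 0.115, Cx3cr1-hi M2 macrophages 0.0804 against 0.0145 and pro-remodeling FAPs 0.0747 against 0.0330. At 7 dpi the same 3 types stood out: fusing myocytes averaged 0.252 in 97 spots against 0.122, pro-remodeling FAPs 0.112 against 0.0539 and Cx3cr1-hi M2 macrophages 0.0678 against 0.0180. Type IIx myonuclei were scarce in the highest 10% at 5 dpi, at 0.00496 against 0.115 in the section.

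Over all spots of a section, depth had a weaker relation to the share than myonuclei theta did. The rank correlation with the UMI count was -0.23, 0.052 and 0.21 at 2, 5 and 7 dpi. At a given myonuclei theta it was 0.20, 0.0063 and 0.36. In the bin under 0.25 it was 0.51, 0.41 and 0.79, and in the bin of at least 0.75 it was -0.050, -0.15 and 0.097. For the non-mitochondrial share in the bin under 0.25, rho with the UMI count was 0.53, 0.40 and 0.80. With myonuclei theta it was -0.11, -0.47 and -0.12 in that bin, so depth was the closer correlate there at 2 and 7 dpi. The same held at 2 dpi in the middle bins, with 0.31 against -0.18 and 0.45 against -0.34. In the bin of at least 0.75 myonuclei theta was the closer, with -0.51, -0.65 and -0.68 against 0.0038, 0.0068 and 0.18. Deeper spots thus held a larger share where few transcripts were assigned to myonuclei, at all 3 time points. The part that the makeup of shallow spots had in this was not tested.

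The number of genes detected followed the share more closely, at a rho of 0.26, 0.48 and 0.55, and at a given UMI count at 0.86, 0.82 and 0.80. At a given myonuclei theta the values for genes were 0.31, 0.12 and 0.48. The mitochondrial percent had a rho of -0.88, -0.92 and -0.90 with the share of all UMIs, but both percentages have the same total. With mitochondrial UMIs taken as a percent of UMIs other than ribosomal protein ones, and the ribosomal protein share taken of non-mitochondrial UMIs, rho was -0.70, -0.79 and -0.80. At a given myonuclei theta these values were smaller in size, at -0.11, -0.18 and -0.26. The hemoglobin percent, which marks red blood cells, had a rho of 0.095, -0.13 and -0.35, and of -0.42 at 7 dpi at a given myonuclei theta. Its median was 0 in every bin at 2 dpi and at most 0.035% and 0.050% in any bin at 5 and 7 dpi. These correlations thus rest on values near the floor.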

How the data were processed

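Spatial RNA sequencing was described in 3 sections, grouped by the treatment in the labels. The study's methods state that Visium libraries were made and that the authors aligned reads to mm10 with spaceranger and chose spots over tissue by hand. The submitters' processing notes name Space Ranger 1.0 and Seurat 3.2.1. The labels' extraction text names a single-cell kit instead. The deposited UMI and gene counts per spot are whole numbers with no normalization (1003 to 48442 UMIs per spot). The deposited percent values give mitochondrial, hemoglobin and ribosomal protein transcripts of each spot's UMIs. Multiplied by the UMI count, 100% of the ribosomal protein and mitochondrial values gave whole numbers to within 1e-06. The deposited theta values are a fraction for each of 27 cell types, obtained by the authors with BayesPrism. The study's methods describe a reference with fewer types, so the table may rest on another version. Theta counts transcripts and not cells. The image alignments were not used here. No column of another sample was present.

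The share without mitochondrial UMIs was 100 times the ribosomal protein percent over 100 minus the mitochondrial percent. Summed myonuclei theta was split at 0.25, 0.5 and 0.75. Types were put into 7 classes. A class median was named from 20 spots, and smaller classes with their number of spots. Types given with values were both myonuclei types, the 4 myogenic types, pro-remodeling FAPs, patrolling monocytes, M1 and both M2 macrophages, capillary endothelial cells and the 3 highest and 3 lowest types of a section, and any other type only beside its class. The measure, classes and types were chosen with earlier results of these data known. Spots are not replicates, so no test and no standard error was taken from them. No spot was filtered out. Python 3.11.15, pandas 2.3.3, NumPy 2.4.6, SciPy 1.17.1 and matplotlib 3.10.9 were used, and the code was tested on simulated data.

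Alternatives were non-mitochondrial UMIs, pooled shares, spots of at least 3000 or of 5000 to 10000 UMIs, bin limits of 0.2 and 0.8, Pearson's r, theta rescaled without myonuclei and partial rank correlations. Bins weighted alike, spots of at least 0.75 or under 0.5 only and the single leading type were chosen after seeing the data. So were the sets by type IIx part, the partial correlations among spots of 5000 to 10000 UMIs and the split of leading classes at 3000 UMIs. A ratio was taken as unmoved within a factor of 1.25 and a correlation within 0.1.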

Additional observations from a re-analysis of the deposited data

Results flagged for a closer look

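The rank correlation of the ribosomal protein share with capillary endothelial theta differed in sign between sections, at 0.276 over 859 spots at 2 dpi and -0.20 over 933 spots at 5 dpi. The value at 5 dpi was -0.12 with non-mitochondrial UMIs, -0.098 by Pearson's r and -0.025 in spots of 5000 to 10000 UMIs, all under the size of 0.2 that picked it out. The rank correlation of the share with the UMI count also differed in sign, at -0.228 at 2 dpi and 0.211 over 966 spots at 7 dpi. Both were picked out because 2 sections pointed opposite ways at a size of at least 0.2. With 1 section per time point, neither difference was tested.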

How the results depend on the processing

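Median shares moved from 5.85% to 8.09% at 2 dpi and from 6.42% to 8.66% at 5 dpi with non-mitochondrial UMIs, and to 8.15% at 5 dpi as a pooled share, while the 9 other recomputed medians were unmoved. Bin ratios became 1.77, 2.42 and 1.90 with non-mitochondrial UMIs at 2, 5 and 7 dpi and were unmoved in the other 10 recomputations, although among spots of 5000 to 10000 UMIs a ratio could be formed in 1 section only. The correlation with myonuclei became -0.76, -0.60 and -0.60 with type IIb alone and was unmoved in 15 other recomputations. The ratio of section medians between 5 and 2 dpi was 1.46 in spots under 0.5, and that between 7 and 5 dpi turned from 1.23 to 0.967 with bins weighted alike and to 0.839 in spots under 0.5. The other 18 recomputed ratios were unmoved. The myogenic-led median at 5 dpi became 17.6% under a myonuclei theta of 0.25, and 6 other recomputed class medians were unmoved.

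Of the recomputed type correlations, 161 kept their value, 83 moved and 23 turned from a size of at least 0.2 to the other sign. Weaker ones that changed sign count as moved, among them committed myoblasts at 5 dpi (0.113 to -0.194 at a given myonuclei theta and -0.652 rescaled) and activated MuSCs at 7 dpi (0.0519 to -0.152 and -0.584). At a given myonuclei theta the 23 included type IIb (0.225, 0.435 and 0.468 at 2, 5 and 7 dpi). With non-mitochondrial UMIs as the total, these partial values of type IIb were -0.0016, 0.082 and 0.30. At a given myonuclei theta the 23 also included, at 2 dpi, quiescent MuSCs (-0.0654), Cx3cr1-hi M2 macrophages (-0.0984), capillary endothelial cells (-0.174) and smooth muscle cells (-0.223). At 5 dpi they included activated MuSCs (-0.0996), patrolling monocytes (-0.0109) and M1 macrophages (-0.0511). With theta rescaled without myonuclei they included, at 2 dpi, quiescent MuSCs (-0.387), activated MuSCs (-0.0548), committed myoblasts (-0.238), pro-remodeling FAPs (-0.203), Cx3cr1-hi (-0.206) and Cx3cr1-lo M2 macrophages (-0.0096), capillary endothelial cells (-0.726) and smooth muscle cells (-0.713). They also included, at 5 dpi, activated MuSCs (-0.493), patrolling monocytes (-0.159) and M1 macrophages (-0.209), and at 7 dpi patrolling monocytes (-0.152) and M1 macrophages (-0.282). The correlation with the UMI count at 2 dpi became 0.204 at a given myonuclei theta, and 0.509, 0.294 and 0.184 within the 3 lower myonuclei bins. The causes were not tested. No paired analysis was possible because each time point had 1 section and no result came from a test.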
